A study of Mus musculus with 28 samples.

Results

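Within the first 4h of TGF-β, H3K27ac in NMuMG cells rose mostly away from promoters, in introns and between genes, and regions near Pmepa1, Snai1, Eng and several integrin genes were among those that rose. These changes are in pileup, the fragments over a peak's summit, from a fit that leaves out the pairing of libraries by replicate number. That fit called 1124 regions higher and 226 lower. With the replicate number as a block, 3974 rose and 3484 fell, so that rises and falls were nearer in number. On fold enrichment over the local background, which moved with the pileup, the unpaired fit called 11 and 5. The Snai1 region then stood at -0.21 on the log2 scale (limma adjusted p = 0.854). The comparison set 3 libraries of cells treated for 4h (2 ng/ml TGF-β, with the solvent DMSO) against 3 libraries of untreated cells (0h). These 6 libraries were chosen by their sample titles, out of the 15 H3K27ac libraries and the 28 samples of the series. NMuMG is an epithelial line from the mouse mammary gland that passes through epithelial to mesenchymal transition (EMT) when given TGF-β, and all libraries come from 1 subclone of it, NMuMG/E9. In the treated arm DMSO was given 30 min before TGF-β. The labels call the 0h cells untreated, while the study groups 0h with its DMSO time points, and if the 0h cells had none, the early response to TGF-β and that to DMSO cannot be told apart. The labels number the replicates but do not say that they are separate cultures, so that the p-values measure the spread between these libraries, which may be technical.

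Acetylation of lysine 27 on histone H3 marks active promoters and active enhancers, and it is removed and laid down within hours when an enhancer changes its use. TGF-β binds a pair of receptor kinases that phosphorylate Smad2 and Smad3, which enter the nucleus with Smad4 and bind DNA together with other factors, among them Fos and Jun dimers (AP-1). The first genes to respond include feedback inhibitors of the pathway and factors such as Snail that repress epithelial genes.

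A region is here a stretch of mm9 formed by merging the overlapping peaks of the 6 libraries, and there were 68639 of them. The pileup is the number of fragments that lay over a peak's summit, solved from the fold enrichment and p of the deposited lists. A scaled pileup is that number multiplied by a factor per library (0.760 to 1.26) that brings the 32675 regions called in all 6 libraries, the shared regions, to one median. The percentile of a peak is its place by pileup within its own library, from 0 for no peak to 100. The peak lists held between 50445 and 66385 peaks per library, and their median pileup was between 39 and 57 fragments. Of the bases that peaks of either of 2 libraries covered, both covered 67.2% (the Jaccard index) on average within a group and 65.2% for libraries of different groups, a difference of 2.02 points (exact permutation test over 10 partitions, two-sided p = 0.4, the smallest possible being 0.1). Libraries of the same replicate number shared 68.6% across the groups, and those of different numbers 63.5%. Of the promoters of 8 epithelial marker genes, 4 held a peak in all 6 libraries, Epcam and Esrp1 none. Those of all leukocyte, endothelial and other tissue markers, and of 4 of the 5 fibroblast markers, held none. The percentiles of the epithelial promoters summed to between 332 and 440 at 0h and between 374 and 406 at 4h.

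Sequences of 6 regions are given because the results below turn on them, 5 that rose and 1 that fell. Each is a window of 151 bases on the plus strand of NCBIM37 (mm9), centred on the AP-1 match nearest to the region's highest summit, or on the summit itself for Arid3a and Frmd6, which had no AP-1 match within 500 bp. Capitals mark the matches to the consensus letters searched (TGANTCA for AP-1, TGTGGTT for RUNX, CCGGAAG for ETS, on both strands). The windows are chr2:173146845-173146995 (Pmepa1, intergenic), chr2:167378396-167378546 (Snai1, intergenic), chr2:32535623-32535773 (Eng, intron), chr5:7974830-7974980 (Steap4, intron), chr10:79399402-79399552 (Arid3a, intron) and chr12:71830429-71830579 (Frmd6, intergenic).
Pmepa1: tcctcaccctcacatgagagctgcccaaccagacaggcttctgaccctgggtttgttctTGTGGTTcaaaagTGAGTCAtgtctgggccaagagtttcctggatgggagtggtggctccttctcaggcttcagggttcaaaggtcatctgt
Snai1: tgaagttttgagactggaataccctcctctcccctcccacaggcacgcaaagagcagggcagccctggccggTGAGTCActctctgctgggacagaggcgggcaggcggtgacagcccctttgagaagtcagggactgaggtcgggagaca
Eng: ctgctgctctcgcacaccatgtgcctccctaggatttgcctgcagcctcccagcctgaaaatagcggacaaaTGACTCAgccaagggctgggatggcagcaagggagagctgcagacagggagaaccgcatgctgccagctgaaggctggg
Steap4: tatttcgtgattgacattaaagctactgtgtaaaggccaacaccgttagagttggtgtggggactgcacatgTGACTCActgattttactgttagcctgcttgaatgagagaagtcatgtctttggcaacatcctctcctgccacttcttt
Arid3a: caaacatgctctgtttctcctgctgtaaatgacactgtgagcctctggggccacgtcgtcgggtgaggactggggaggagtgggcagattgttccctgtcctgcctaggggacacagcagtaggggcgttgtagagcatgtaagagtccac
Frmd6: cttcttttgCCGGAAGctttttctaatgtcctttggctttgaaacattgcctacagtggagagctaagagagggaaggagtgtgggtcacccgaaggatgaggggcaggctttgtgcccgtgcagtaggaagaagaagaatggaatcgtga
The AP-1 letters lay 427 bp from the summit in the Pmepa1 region, 352 bp in the Eng region, 470 bp in the Steap4 region and 181 bp in the Snai1 region.

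At the shared regions, 1124 rose and 226 fell past the threshold (limma on log2 pileup, adjusted p under 0.05), which is 3.44% and 0.692% of the 32675 tested. The median change of the rising regions was 1.09 on the log2 scale, or 2.12-fold, and that of the falling ones was -0.999, against -0.05 over all shared regions. In all 1124 rising regions every 4h library lay above every 0h library, an arrangement found in 10.8% of the shared regions, and in all 226 falling ones every 4h library lay below, as in 8.55%. The replicate numbers pair the libraries, and with them as a block 3974 regions rose (12.2%) and 3484 fell (10.7%). All 1124 and all 226 were among these, and the median change over the 3974 was 0.64. The count of rising regions was 487 without 4h replicate 1, 505 without 0h replicate 1 and 768 without 4h replicate 3, and between 1036 and 1217 without any other library. That of falling regions was 44 without 4h replicate 1, 70 without 0h replicate 1, 106 without 0h replicate 3, 135 without 4h replicate 2 and 430 without 4h replicate 3.

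**Figure D1:**
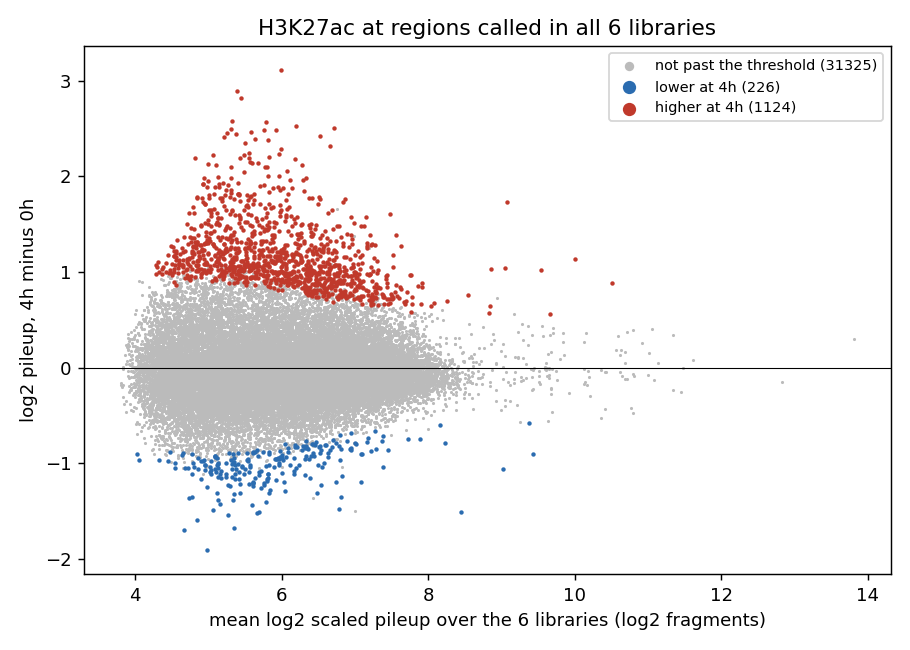
Each point is 1 of the 32675 shared regions. The x axis is its mean log2 scaled pileup over the 6 libraries and the y axis the log2 pileup at 4h minus that at 0h, with the 1124 rising regions in red and the 226 falling ones in blue. The red points reach 3.11, the blue ones -1.91, and most of both lie at low and middle pileups.

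The change was distal. Promoters, which run from 1000 bp before to 100 bp after a start site, held 21.0% of the shared regions but only 33 of the 1124 rising ones (2.94%) and 1 of the 226 falling ones (0.442%). Put by class, 0.481% of promoter regions rose, 1.10% of exonic, 1.17% of UTR, 4.46% of intronic and 4.80% of intergenic ones. Falling regions were 0.0146% of the promoter regions and 1.25% of the intergenic ones. The median distance to the nearest start site was 20.2 kb for rising, 28.1 kb for falling and 13.05 kb for all distal shared regions. With the replicate block, 3.31% of promoter regions rose and 6.79% fell, against 16.3% and 14.1% of the intergenic ones.

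The lowest p belonged to a region in an intron of Arid3a, a DNA-binding factor of the ARID family, 6.25 kb into the gene. Its scaled pileup was 16.7, 26.4 and 22.9 fragments in the 0h libraries and 192, 171 and 199 in the 4h libraries, so that the lowest 4h value was several times the highest 0h value. The log2 difference was 3.11 ± 0.24 (SE; limma, adjusted p = 5.59e-06). An intronic region of Steap4, a metalloreductase of the cell surface, went from 35.7, 54.1 and 44.7 fragments to 253, 227 and 273 (2.50 ± 0.20, limma adjusted p = 9.43e-06). An intronic region of Hnf4a, a nuclear receptor of hepatic and intestinal epithelium, went from 39.5, 45.3 and 52.3 to 219.9, 200.1 and 263 (2.32 ± 0.20, limma adjusted p = 1.62e-05). In each of these regions the groups were far apart compared with the spread within them, as their choice by the lowest p implies. The region in Golga7b was the strongest of the 5 with the lowest p, with 278, 295 and 320.3 fragments at 0h and 935, 857 and 1203 at 4h (1.73 ± 0.16), and a region 279.6 kb from the predicted gene Gm6816 went from 25.9, 37.8 and 29.4 to 196, 142 and 197 (2.53 ± 0.23).

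Among the falling regions, the lowest p belonged to one 18.7 kb upstream of Ermp1, a metallopeptidase of the endoplasmic reticulum. It was among the strong regions at 0h, with 563, 617 and 599 fragments, and held 175, 223 and 231 at 4h (-1.51 ± 0.16, limma adjusted p = 4.21e-05). Its fold enrichment over the local background did not fall with it (difference 0.01 on the log2 scale), and the background fell as well. Regions near Fam19a5 (53.2, 56.6 and 76.3 to 14.4, 18.9 and 15.9 fragments), Xkr9 (53.2, 46.6 and 38.1 to 15.3, 13.8 and 13.1) and Cd36, a fatty acid and thrombospondin receptor (224, 138 and 202 to 56.8, 61.7 and 83.3), fell by 1.91, 1.70 and 1.47 on the log2 scale. A region 95.9 kb upstream of Frmd6, a FERM domain protein that acts upstream in the Hippo pathway, held 81.4, 88.1 and 93.7 fragments at 0h and 34.2, 26.4 and 31.8 at 4h (-1.51 ± 0.23, limma adjusted p = 0.00106). The 4h values of all 5 regions lay below every 0h value, as in every falling region.

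**Figure D2:**
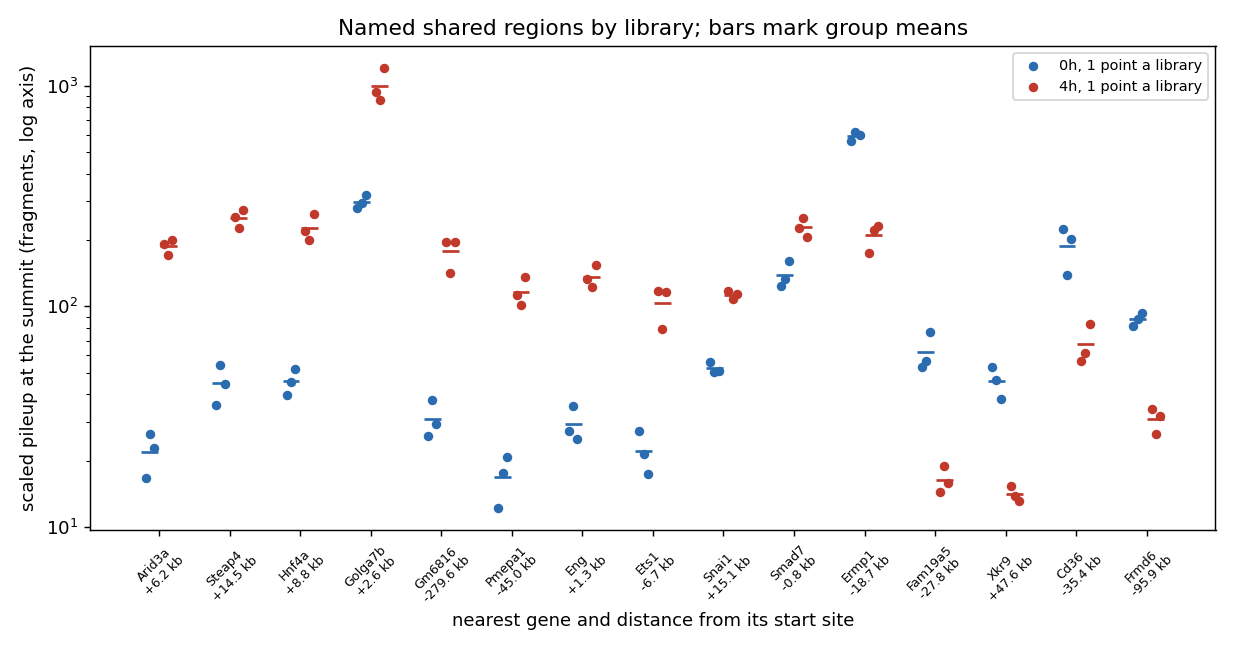
Scaled pileup at the summit (fragments, log axis) of 15 shared regions, 1 point a library, blue for 0h and red for 4h, with bars at the group means and the nearest gene and distance below. By the choice of regions, the red points lie above the blue ones in the 10 on the left, and below them in the 5 on the right.

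Pmepa1 encodes a membrane protein that binds receptor-regulated Smads and dampens TGF-β signalling. All 7 of its shared regions rose, 6 further regions were gained (called in 3 of 3 libraries at 4h and 0 of 3 at 0h) and 2 were lost, out of 26 regions whose nearest start site is that of Pmepa1. The region 45.01 kb upstream, shown above with its AP-1 and RUNX letters, went from 12.2, 17.6 and 20.7 fragments to 113, 102 and 136 (2.82 ± 0.26, limma adjusted p = 2.01e-05). The promoter region went from 89.7, 108 and 76.3 fragments to 204, 181 and 193 (1.09 ± 0.19), and the smallest change, 14.1 kb into the gene, was 0.67 ± 0.16. Groups did not overlap in any of the 7, as in every rising region. Averaged over those of its 26 regions with a peak in at least 3 libraries, Pmepa1 stood at a percentile of 29.3, 30.3 and 34.6 at 0h and 66.1, 62.0 and 74.8 at 4h (difference 36.2 ± 4.95, limma adjusted p = 0.0123). The 6 gained regions counted as 0 at 0h and the 2 lost ones as 0 at 4h, so the value is a description. The call was lost without any one of the 4h libraries (limma adjusted p between 0.178 and 0.394), where the gained regions also left the mean. The local background rose with the pileup: at the upstream region it was 2.50, 3.78 and 2.59 scaled fragments at 0h and 14.2, 12.6 and 18.01 at 4h, and its fold enrichment went from 3.97, 3.74 and 5.93 to 7.54, 7.46 and 7.21. It was the only 1 of the 7 whose fold enrichment rose without overlap of the groups, while in 4 it fell without overlap and in 2 the groups overlapped. At the promoter the background rose from between 20.4 and 26.1 to between 71.3 and 95.0, and the fold enrichment fell from between 3.37 and 4.10 to between 2.13 and 2.68.

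**Figure D3:**
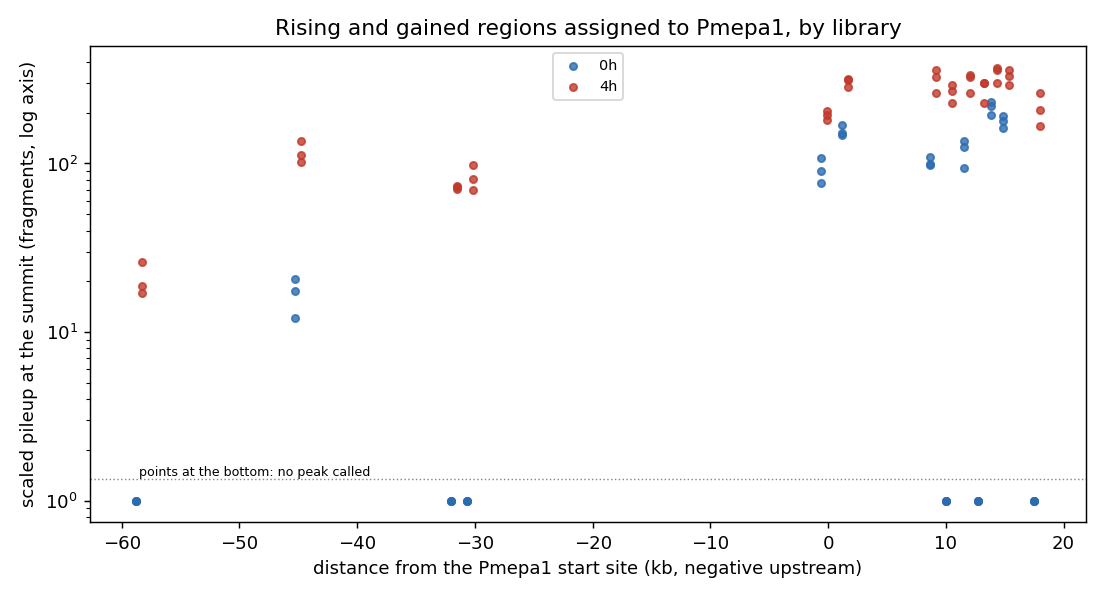
Scaled pileup (fragments, log axis) of the 7 rising and the 6 gained regions of Pmepa1 against their distance from its start site in kb, 1 point a library, with blue (0h) drawn slightly left of red (4h). Points below the dotted line stand for no peak. By the choice of regions, the red points lie above the blue ones at all 13, from 58.6 kb upstream to 17.8 kb into the gene.

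Of the 12 TGF-β feedback genes, 4 had rising regions, which made up 12 of their 88 shared regions, and 0 fell (13.6%, against 3.44% of all shared regions). The replicate block gave 37 rising and 5 falling (42.0% and 5.68%, against 12.2% and 10.7% of all shared regions). Of the 12, 7 belonged to Pmepa1, and without that gene 5 of 81 rose (6.17%). Besides Pmepa1 these were Smad7, Smad6 and Ski (-0.64 on log2 fold enrichment at the Ski region with the lowest p), the first an inhibitory Smad that blocks the type I receptor. The Smad7 promoter held 123, 133 and 160.2 fragments at 0h and 227, 250.5 and 207 at 4h (0.72 ± 0.17, limma adjusted p = 0.0247), while fold enrichment changed by -0.0125 on the log2 scale. That call was lost without 0h replicate 1 or 2 or without 4h replicate 1 or 2 (limma adjusted p between 0.0680 and 0.134), and Smad7 had 2 further rising and 3 gained regions. Spsb1, an adaptor of a ubiquitin ligase that targets the type II receptor, had 4 gained regions between 20.6 and 56.1 kb downstream of its start site, none with a 0h peak within 1000 bp. Its mean percentile, over those of its 22 regions with a peak in at least 3 libraries, was 8.20, 7.24 and 9.83 at 0h and 52.9, 45.2 and 60.5 at 4h (44.5 ± 4.81, limma adjusted p = 0.00553). The 4 gained regions entered through their 4h peaks and counted as 0 at 0h, so the value is a description. The call was lost without any one 4h library (limma adjusted p between 0.0532 and 0.137), where the gained regions also left the mean. The region in the first intron of Skil, a Smad corepressor, did not pass the threshold (282, 365 and 323 to 435, 454 and 430, 0.45 ± 0.15, limma adjusted p = 0.121; 0.000408 with the replicate block).

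Of the genes for TGF-β ligands, receptors and Smads, 8 of 107 shared regions rose (7.48%, against 3.44% of all shared regions) and 1 fell. The replicate block gave 28 and 22 (26.2% and 20.6%, against 12.2% and 10.7%). Eng encodes endoglin, a co-receptor of the TGF-β family. Its region 1.33 kb downstream of the start site went from 27.4, 35.2 and 25.1 fragments to 133, 122 and 153 (2.23 ± 0.23, limma adjusted p = 4.21e-05), and one 7.24 kb upstream of it from 26.6, 31.5 and 32.7 to 70.3, 74.3 and 79.6 (1.31 ± 0.23). The 4h values of both lay well above those at 0h. A region 1.08 kb upstream of Tgfbr1, the type I receptor, went from 79.1, 56.6 and 65.4 to 139.7, 127 and 149 (1.06 ± 0.20, limma adjusted p = 0.00565), while fold enrichment changed by -0.16. Regions in Acvr1, another type I receptor, also rose (for one, 81.4, 106 and 59.9 to 164, 169 and 168), with -0.0200 on log2 fold enrichment at the one with the lowest p. The region that fell lay 6.15 kb from Tgfbr3, which encodes the co-receptor betaglycan, with 91.2, 78.0 and 82.8 fragments at 0h and 41.5, 34.0 and 35.6 at 4h (-1.19 ± 0.23, limma adjusted p = 0.00585). The 2 co-receptor genes thus held regions that changed in opposite directions.

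The EMT transcription factors had 10 rising regions of 81 (12.3%, against 3.44% of all shared regions) and 0 that fell. The rising ones came from 4 genes, Snai1, Sox4, Sox9 and Ets1. With the replicate block 18 rose and 5 fell (22.2% and 6.17%, against 12.2% and 10.7%). The region 15.1 kb downstream of the Snai1 start site, whose sequence is given above, held 56.3, 50.3 and 51.2 fragments at 0h and 118, 108 and 113 at 4h (1.11 ± 0.20, limma adjusted p = 0.00427). The groups did not overlap in pileup, as in every rising region, but the log2 fold enrichment of the same region did not rise (-0.21, limma adjusted p = 0.854). A region 32.3 kb downstream also rose (76.0, 55.4 and 77.4 to 160.4, 111 and 176, 1.09 ± 0.22), and one 24.2 kb downstream was gained at low percentiles of 11.6 to 19.5. The strongest region of Snai1, 5.59 kb downstream, was 167, 159 and 208 at 0h and 232, 208 and 216 at 4h (0.30 ± 0.17, limma adjusted p = 0.445; 0.027 with the replicate block). Ets1, an ETS factor, had the largest rise of this list, 6.66 kb upstream, from 27.4, 21.4 and 17.4 to 117, 79.3 and 116 (2.24 ± 0.26, limma adjusted p = 0.000118). A region 33.4 kb downstream of Sox4 went from 53.2, 74.3 and 68.6 to 164, 139.7 and 157 (1.24 ± 0.20; -0.32 on log2 fold enrichment), and the 5 rising regions of Sox9 lay between 217 and 279 kb downstream of it. Hmga2, a chromatin factor induced by Smads, showed 0.19 ± 0.19 at its strongest region and 1 gained region 107 kb upstream.

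For the genes of AP-1 and Maf factors, 5 of 48 shared regions rose (10.4%) and 0 fell (16 and 2 with the replicate block), and all 5 belonged to Fos and Fosb. The region 19.003 kb upstream of Fos went from 44.1, 52.9 and 45.8 fragments to 128, 88.1 and 139 (1.29 ± 0.23, limma adjusted p = 0.00324). Jun had 4 gained regions between 91.2 and 141 kb upstream, none with a 0h peak within 1000 bp, at percentiles between 12.8 and 60.2. The region 1.92 kb from Junb stood just outside the threshold, with 204, 209 and 239 fragments at 0h and 332, 291 and 340 at 4h (0.56 ± 0.16, limma adjusted p = 0.0518; 3.72e-05 with the replicate block). Immediate-early and growth genes had 2 rising regions of 145 (1.38%) and 0 falling ones (19 and 22 with the replicate block), both near Klf6 (-0.0428 on log2 fold enrichment at the one with the lower p), and ERK feedback genes had 3 of 71 (4.23%, 10 rising and 6 falling with the replicate block), near the phosphatase genes Dusp2 and Dusp5. Over all shared regions 3.44% rose, and with the replicate block 12.2% rose and 10.7% fell. With the block the shares were 33.3% and 4.17% for AP-1 and Maf factors. They were 13.1% and 15.2% for immediate-early and growth genes and 14.1% and 8.45% for ERK feedback genes. The Dusp2 promoter region went from 64.6, 60.4 and 82.8 to 170.3, 132 and 185 (1.23 ± 0.21, limma adjusted p = 0.00213).

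Matrix and matricellular genes had 9 rising regions of 128 (7.03%, against 3.44% of all shared regions) and 0 falling ones. With the replicate block 29 rose and 11 fell (22.7% and 8.59%, against 12.2% and 10.7%). Of their 279 regions 13 were gained, against 1206 of 68639 over all genes (1.76%). The highest change was in Timp3, an inhibitor of matrix metalloproteinases, from 16.7, 17.6 and 27.2 fragments to 79.3, 78.0 and 79.6 (1.98 ± 0.26, limma adjusted p = 0.000282). A region 13.2 kb upstream of Plaur, the urokinase receptor, went from 54.8, 54.1 and 70.8 to 124, 142 and 174 (1.29 ± 0.21). Ctgf, a matricellular protein, had 4 rising regions, the nearest 6.30 kb and the farthest 149 kb upstream.

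Integrins, the receptors through which cells hold the matrix, had 6 rising regions of 55 (10.9%, against 3.44% of all shared regions) and 1 that fell. The replicate block gave 22 and 1 (40% and 1.82%, against 12.2% and 10.7%). An intronic region of Itgav went from 12.2, 18.9 and 15.3 fragments to 60.4, 61.7 and 79.6 (2.13 ± 0.26, limma adjusted p = 0.000156). One in Itgb5, a partner of that chain, went from 38.8, 54.1 and 55.6 to 172, 122 and 228 (1.79 ± 0.24, limma adjusted p = 0.000403), and Itgb6, another partner, had 3 rising regions (for the first, 97.3, 81.8 and 139 to 214, 190.1 and 245). Itgav with either partner forms a matrix receptor that can also activate latent TGF-β. The intronic region of Itga2 passed narrowly, from 55.5, 44.1 and 68.6 to 110.0, 74.3 and 149 (0.95 ± 0.26, limma adjusted p = 0.0482), and was lost without replicate 1 or 2 of 0h or replicate 1 or 3 of 4h (limma adjusted p between 0.132 and 0.173). A region 245 kb from Itga1 fell, from 70.0, 47.8 and 59.9 to 22.5, 21.4 and 21.5 (-1.42 ± 0.25, limma adjusted p = 0.00276; 0.0636 on log2 fold enrichment). Actin cytoskeleton genes had 3 rising regions of 64 (4.69%, near the 3.44% of all shared regions), in Actn4 and Cald1, and 0 falling ones. With the replicate block 14 of these regions rose (21.9%) and 0 fell.

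Cytokine and Jak-Stat genes had 3 rising regions of 72 (4.17%), Wnt genes 2 of 42 (4.76%) and Notch genes 4 of 68 (5.88%). Over all shared regions the share was 3.44%, and 0 fell in these lists. With the replicate block between 14.3% and 17.6% rose and between 5.88% and 7.14% fell, against 12.2% and 10.7%. The intergenic regions between 10.5 and 35.6 kb upstream of Jak2, the kinase of cytokine receptors, were strong at 0h already and rose further. The farthest of the 3 went from 382, 337 and 263 fragments to 659, 647 and 683 (1.03 ± 0.16, limma adjusted p = 0.00106; -0.16 on log2 fold enrichment), while the Jak2 promoter, the highest of its shared regions, changed by 0.37 ± 0.15 (limma adjusted p = 0.217; 0.00499 with the replicate block). A region 538 kb from Jag1, a Notch ligand, went from 12.9, 16.4 and 20.7 to 63.1, 47.8 and 58.0 (1.77 ± 0.26), and Jag1 also had 1 gained and 3 lost regions. One 159 kb from Lef1, a Wnt effector, went from 50.2, 59.2 and 50.1 to 145, 141 and 163 (1.49 ± 0.20). Of the cell cycle arrest genes, 2 regions of 73 rose (2.74%, against 3.44% of all shared regions) and 1 fell. The replicate block gave 10 and 10 (13.7% each, against 12.2% and 10.7%). Of the 2 that rose without the block, one lay 169 kb from Cdkn2b, an inhibitor of Cdk4 and Cdk6. The other lay 69.7 kb from Gadd45a, a stress-induced gene. A region 117 kb from Ccnd1, which encodes cyclin D1, fell from 57.0, 47.8 and 90.4 to 30.6, 25.2 and 37.4 (-1.03 ± 0.28, limma adjusted p = 0.0440). That call was lost without 0h replicate 1 or 3 or 4h replicate 1 or 2 (limma adjusted p between 0.107 and 0.187).

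No shared region of the Id and BMP genes passed in either direction (0 of 52). The replicate block gave 6 rising and 10 falling (11.5% and 19.2%, against 12.2% and 10.7% of all shared regions). Id proteins hold back basic helix-loop-helix factors. The Id3 promoter held 137, 140 and 119 fragments at 0h and 92.8, 118 and 88.9 at 4h, with the groups just apart (-0.41 ± 0.19, limma adjusted p = 0.337; 0.00927 with the replicate block). The region 4.53 kb from Id2 held 217, 142 and 182 at 0h and 142, 122 and 139 at 4h, which overlap (-0.41 ± 0.19, limma adjusted p = 0.324; 0.00523 with the block). At Id1 the values were 221, 190 and 216 against 230, 213 and 256 (0.16 ± 0.16), again overlapping. Wnt4 showed -0.42 ± 0.20 at its strongest region (limma adjusted p = 0.332; 0.00473 with the block) and Nid2 -0.18 ± 0.25.

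Epithelial junction genes had 1 rising and 1 falling region of 84, near Cldn4 and Shroom3 (1.19% each, against 3.44% and 0.692% of all shared regions). With the replicate block 11 rose and 8 fell (13.1% and 9.52%, near the 12.2% and 10.7% of all shared regions). The strongest region of Cdh1, the gene of E-cadherin, held 192, 190 and 202 fragments at 0h and 217, 205 and 204 at 4h (0.10 ± 0.16, limma adjusted p = 0.860). That of Cdh2, the gene of N-cadherin, held 130, 110 and 143 against 114, 112 and 138 (-0.07 ± 0.19), and a weaker region 4.17 kb upstream of it rose from 23.6, 25.2 and 26.1 to 48.7, 45.3 and 47.7 (0.92 ± 0.24, limma adjusted p = 0.0354), a call lost without any one of the 6 libraries (limma adjusted p between 0.0622 and 0.157). The promoter of Cldn4, a tight junction protein of epithelia, had a peak only at 4h, at percentiles of 47.4, 38.3 and 54.4. Epithelial regulators had 4 rising regions of 72 (5.56%, against 3.44%), near Grhl2, Ehf, Klf5 and Hnf4a, and 1 that fell, near Ehf. The replicate block gave 7 and 17 (9.72% and 23.6%, against 12.2% and 10.7%). Housekeeping genes had 0 of 37 in either direction (0 and 2 with the block). Of the rising and falling regions named without values here and above, those with the lowest p near Smad6, Ski, Acvr1, Sox9, Fosb, Dusp5, Ctgf, Cald1, Cldn4, Shroom3, Grhl2, Ehf and Klf5 lost the call without 1 or more of the 6 libraries (limma adjusted p between 0.0520 and 0.302).

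The YAP-TEAD list was the one with regions that fell and none that rose, 3 of 63 (4.76%, against 0.692% of all shared regions). All 3 lay near Frmd6. The replicate block gave 1 rising and 13 falling for the list (1.59% and 20.6%, against 12.2% and 10.7% of all shared regions). The list does not hold Ctgf, whose 4 rising regions were counted with the matrix genes. Next to the region described above lay a second, with 79.1, 96.9 and 92.6 fragments at 0h and 37.9, 35.2 and 37.4 at 4h (-1.28 ± 0.23, limma adjusted p = 0.00301), and the third lay 112 kb upstream (85.2, 90.6 and 117 to 47.8, 57.9 and 60.8). Frmd6 also lost 3 regions, as many as any gene. At 56.1 and 55.4 kb upstream these stood at percentiles of 39.8, 48.0 and 38.3 and of 33.8, 39.6 and 38.3 at 0h, with fold enrichments of 7.01 to 9.37, and at 4h there was no peak within 1000 bp of them. Averaged over those of its 21 regions with a peak in at least 3 libraries, Frmd6 went from percentiles of 48.7, 44.1 and 54.9 to 21.3, 26.5 and 30.3, which was not past the threshold (-23.2 ± 4.67, limma adjusted p = 0.0584; 0.00472 with the replicate block). The 3 lost regions counted as 0 at 4h in this mean.

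By presence and absence of peaks, 1206 of the 68639 regions were gained (1.76%) and 376 lost (0.548%). Near many of them a peak of the other group lay beside the region: 382 of the gained had a 0h peak within 1000 bp and 182 of the lost a 4h peak. Those with none numbered 824 gained (1.2%) and 194 lost (0.283%). Since 1 library fewer has to call or miss a region, counts were higher with a library left out, 2526 gained without 4h replicate 2 and 1863 without 4h replicate 1, and 1218 lost without 4h replicate 3 and 1196 without 0h replicate 2. Genes with most gained regions were Pmepa1 and Gm22 with 6 and Dyrk3 and Gm5528 with 5, then Agap1 and others with 4. Those with most lost regions, 3 each, were Cblb, Frmd6, Jag1 and Plcb1.

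The gained regions with the highest percentiles were for the most part low in fold enrichment, over a high local background. One in an intron of Glis3, a Krüppel-like zinc finger factor, stood at percentiles of 99.8, 99.8 and 99.9 at 4h but only 1.37-fold to 1.49-fold over a local background of 299 to 507 fragments, and a 0h peak at percentile 99.9 lay within 1000 bp in each 0h library. The next were 3 intronic regions of Pmepa1 (fold enrichment 1.42 to 1.91) and 2 intergenic ones near Zfp36l2, which encodes an RNA-binding protein (1.72 to 2.00). An exception was the region 53.4 kb from Pyroxd2, with 130, 157 and 258 fragments at 4h, a fold enrichment of 8.06 to 10.1 and no 0h peak nearby. By fold enrichment with no 0h peak nearby it was followed in the same list by an intronic region of Frmd4a (52, 45 and 62 fragments, 7.78-fold to 9.51-fold) and one near Robo4, a receptor of endothelial guidance (55, 28 and 71 fragments). Among the lost, the region with the highest percentiles, 20.6 kb from Anxa13, stood at 96.5, 94.7 and 93.6 with a fold enrichment of 1.63 to 1.71, and 2 of 3 libraries at 4h had a peak within 1000 bp.

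By percentile, with no peak set to 0, limma gave 1161 regions higher at 4h (2.49% of the 46600 with a peak in at least 3 libraries) and 164 lower (0.352%), and with the replicate block 2454 (5.27%) and 664 (1.42%). These counts are no test of a difference: 575 of the 1161 (49.5%) had no 0h peak and 129 of the 164 (78.7%) no 4h peak, so that they passed the filter through the group where they were high, and 363 of the 1161 (31.3%) were called in all 6 libraries. Where a peak in 1 library sufficed, the counts were 163 and 10. Without 4h replicate 1 or without 4h replicate 2 limma called 0 and 0 (at an unadjusted p under 0.05, 2939 and 967, and 3739 and 1760), without 4h replicate 3 it called 78 higher and 189 lower, and without 1 of the 0h libraries between 437 and 722 higher and between 3 and 6 lower.

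For each gene the percentiles were averaged over its assigned regions with a peak in at least 3 libraries. Of 13667 nearest genes, 158 were higher at 4h (1.16%) and 13 lower (0.0951%), with 718 (5.25%) and 400 (2.93%) under the replicate block. Genes without a peak at 0h entered through their 4h peaks, and their values are a description. Gained and lost regions of other genes counted as 0 in the group without a peak. The counts and p-values by gene are therefore a description too. Izumo1, a sperm-egg fusion protein, was one of them, with 1 region at percentiles of 84.0, 76.2 and 94.7 at 4h. Cspg4, the NG2 proteoglycan, was another, at 56.4, 51.6 and 65.7 with 4 assigned regions. Sox10, a factor of the neural crest, went from 1.74, 9.87 and 14.2 to 74.1, 81.9 and 88.9 with 2 assigned regions (73.0 ± 5.47, limma adjusted p = 0.00160). Of the genes in the lists, those that passed were Pmepa1, Spsb1, Eng, Plod2 and Tgfbr1. Eng went from 30.1, 23.8 and 29.6 to 56.6, 49.6 and 66.6 (limma adjusted p = 0.0371), Plod2, a collagen lysyl hydroxylase, from 30.3, 27.3 and 23.9 to 53.1, 48.2 and 56.4 (0.0324) and Tgfbr1 from 34.3, 24.4 and 32.6 to 62.7, 51.0 and 60.2 (0.0408). The last 3 lost the call without any one of the 6 libraries, with limma adjusted p up to 0.242, 0.517 and 0.223 in that order, and Pmepa1 and Spsb1 without any one 4h library, as given above. The number of nearest genes that were higher was 3 without 4h replicate 1, 15 without 4h replicate 3 and 24 without 4h replicate 2, and between 55 and 94 without a 0h library. Of the lower ones it was between 0 and 6 without any one library. Without 1 library of a group, regions called only in its 3 libraries also left the averages.

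By the highest peak with its summit inside the promoter, limma gave 5 of 8212 promoters higher at 4h (0.0609%) and 10 lower (0.122%). All 15 were at 0 in every library of the group where they were lower and passed the filter through the other group, so the counts are a description and no test. Among the 5, Anxa3, Inadl, Atf7ip and 4933411K16Rik went from no summit in any 0h library to percentiles between 64.8 and 82.6. In Inadl, Atf7ip, Thoc6, Fam96b and Ap3b1 a peak overlapped the promoter in all 6 libraries, and only its summit moved across the edge. Counting any peak that overlaps, Inadl had percentiles of 80.9, 80.2 and 77.1 at 0h and 74.5, 82.6 and 77.2 at 4h, and Fam96b 81.9, 83.5 and 77.9 against 77.4, 81.5 and 67.4. Anxa3, an annexin, was without any overlapping peak at 0h and stood at 74.1, 77.5 and 80.1 at 4h, and Ccdc114 stood at 73.7, 73.1 and 85.0 at 0h and had none at 4h. With the replicate block, limma called 0 and 0 promoters (218 and 448 at an unadjusted p under 0.05), and without any one library also 0 and 0 (between 95 and 180 higher and between 126 and 394 lower at an unadjusted p under 0.05).

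The local background moved with the pileup. Without a control library, MACS2 estimates it from the fragments around the peak, and whether a control was used in peak calling is not stated in the sources used here. The series also holds input libraries, and the study computed its enrichment relative to input after calling peaks. That measure was not computed here. In the rising regions it went up by a median of 1.02 on the log2 scale and was higher in 1123 of 1124, close to the 1.09 of the pileup, and fold enrichment went up by a median of 0.19 and was higher in 846 (75.3%). In the falling regions the medians were -0.91 for the background and -0.17 for fold enrichment, which was higher in 42 of 226. Over all shared regions they were -0.04 and -0.01. Tested on log2 fold enrichment in place of pileup, limma called 11 shared regions higher and 5 lower (1114 and 1226 at an unadjusted p under 0.05). Of the 57 named shared regions 2 kept the call. In 10 the estimate had the other sign, among them those of Jak2, Sox4, Snai1, Tgfbr1 and Smad7 described above. None of these 10 passed the threshold (limma adjusted p between 0.172 and 0.999), so no change in fold enrichment was shown there. All directions given for these genes are therefore those of the pileup. The part of the background in these changes was not tested.

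AP-1 letters were found more often at rising regions, but beside the summit. Within 100 bp of the highest summit TGANTCA was present in 6.58% of the rising, 5.64% of the gained, 3.98% of the falling and 4.26% of the lost regions, against 5.36% of the distal shared regions. Within 500 bp it was present in 64.8% of the rising, 61.3% of the gained, 38.9% of the falling and 30.6% of the lost, against 42.4% of the distal shared regions and 40.8% of all regions. The windows of Pmepa1, Snai1, Eng and Steap4 printed above are examples. The Smad palindrome GTCTAGAC was present within 500 bp in 5.89% of the gained and 4.27% of the rising regions, against 1.01% of the distal shared, 0.442% of the falling and 0.266% of the lost. The GC-rich Smad element GGCGCC was less frequent in the rising regions (4.00%) than in the distal shared ones (16.4%), and so was ETS (3.83% and 11.3%), in regions whose median GC content was 47.0% against 48.3%. TEAD letters (GGAATG) were in 50.4% of the rising, 56.2% of the falling and 48.6% of the distal shared regions, and the E-box CAGGTG in 53.3%, 50% and 52.2%. RUNX letters were in 24.9%, 26.5% and 21.9%, and forkhead letters (TGTTTAC) in 17.6%, 19.03% and 15.9%. The Grainyhead letters AACCNGTT were in 6.94%, 11.1% and 6.97%, and the CRE letters TGACGTCA in 1.25%, 0.442% and 1.80%. Both strands were searched, no set of letters contains another, the 500 bp window was chosen after the values at 100 bp were seen, and the shares are descriptions without a test.

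**Figure D4:**
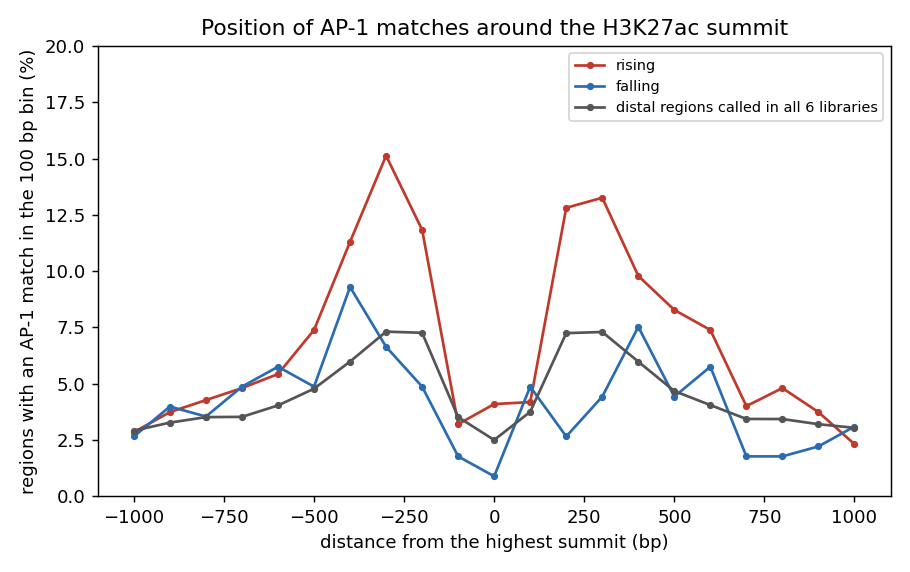
Share of regions (%) with an AP-1 match in bins of 100 bp against the distance from the highest summit, for rising (red), falling (blue) and distal shared regions (grey). The red line has its maxima 300 bp on either side of the summit, at 15.1% and 13.3%, where the grey line reaches 7.31% and 7.29%. The blue line lies below the grey one at 200 and 300 bp on either side. At the summit the shares are 4.09% (red), 0.885% (blue) and 2.50% (grey), and beyond 800 bp the lines are close together.

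The regions chosen in these 6 libraries were then looked up in the 9 libraries that had no part in the choice, from 24h of TGF-β and from 4h and 24h of TGF-β with UO126, an inhibitor of the kinase upstream of ERK (ERKi, 25 µM, added 30 min before). Of the gained regions, 88.0%, 81.3% and 93.4% held a peak in the 24h libraries, and of the lost ones 10.9%, 22.3% and 20.2%, while of all regions 62.3% to 69.4% did. Under ERKi at 4h the gained regions held a peak in 84.1%, 64.2% and 89.1% and the lost ones in 20.2%, 39.6% and 42.8%, and under ERKi at 24h in 92.6%, 76.4% and 95.0% and in 25.3%, 18.4% and 31.1%. In ERKi 4h replicate 2 the share of gained regions (64.2%) was near that of all regions (63.7%). In all 9 libraries the gained regions were called more often than all regions, and the lost ones less often.

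**Figure D5:**
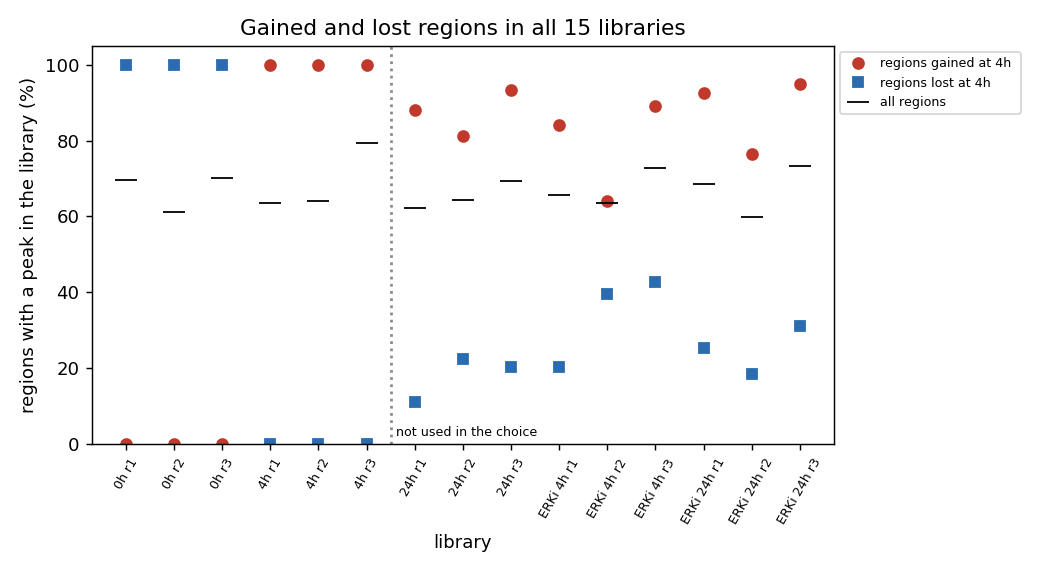
Share (%) of the 1206 gained (red circles) and 376 lost regions (blue squares) that held a peak in each of the 15 libraries, with a black dash for all 68639 regions. Left of the dotted line are the 6 libraries that defined the sets, at 0 or 100 by construction. Right of it the red circles lie above the dashes, apart from ERKi 4h replicate 2 where they nearly meet, and the blue squares below.

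The level of the rising regions, the median log2 pileup relative to the shared regions, was -1.0, -0.86 and -0.71 in the 0h libraries and 0.42, 0.16 and 0.59 in the 4h libraries, which chose them. It was 0.58, 0.13 and 0.83 at 24h, 0.20, 0.01 and 0.47 with ERKi at 4h and 0.55, 0.25 and 0.84 with ERKi at 24h, in every library above the 0h values. Single regions went different ways after 4h. The Arid3a region stood at a level of -1.75 ± 0.34 (SD, n = 3) at 0h and 1.36 ± 0.11 at 4h and was at 0.70 ± 0.56 at 24h. The upstream region of Pmepa1 went from -2.15 ± 0.39 to 0.67 ± 0.21 and 1.24 ± 0.32, and the Ermp1 region from 3.02 ± 0.07 to 1.51 ± 0.22 and -0.76 ± 0.95. These later levels share the 0h libraries with the comparison above and were not tested.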

How the data were processed

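H3K27ac ChIP-seq of NMuMG cells was compared between 3 untreated libraries (0h) and 3 libraries after 4h of TGF-β with DMSO, and 9 later or ERKi libraries served for looking up levels. The authors aligned reads to mm9 with bowtie, converted them with samtools and ran MACS2 on every library by itself, with default parameters. The deposited lists give each summit's fold enrichment, a ratio to the local background, and -log10 p and -log10 q. The score repeats the q value in the deposited lists and was not used. The control used in peak calling is not given in the sources used here. The other samples of the series, among them input libraries, were not analysed here.

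Pileup and local background were solved from fold, taken as (pileup + 1) / (background + 1), and the Poisson p (tolerance 0.005 in -log10 p; 12 of 338452 peaks remained unsolved). Without read totals no counting interval could be given, and 3 replicates per group set the precision. Peaks overlapping by at least 1 bp were merged. Genes (22380 protein-coding) and sequence came from the GENCODE annotation and genome of NCBIM37 (mm9), whose lengths held every peak. A region was assigned to the nearest start site. Tests used limma 3.58.1 in R 4.3.3 (moderated with a mean trend, two-sided, Benjamini-Hochberg over all features tested) on log2 pileup of shared regions, centred on the median, on percentiles of regions with a peak in at least 3 libraries, on the highest percentile in each promoter and on the mean percentile of each gene's regions. Only regions with a peak in at least 3 libraries entered the mean of a gene, with 0 where a library had no peak. Tables used Python 3.11.15 with pandas 2.3.3, NumPy 2.4.6 and SciPy 1.17.1, and the figures matplotlib 3.10.9. The steps were tested on simulated data. The fit of shared regions recovered 30 of 100 planted changes of 1 on the log2 scale and 84 of 100 of 2, with 5 calls not planted. A region that did not pass may therefore still have changed by such an amount. The simulated noise was drawn independently for each library, without the pairing by replicate number seen in the data. The rates of recovery and of calls not planted may thus differ in the real fit. The comparison, members, gene lists (259 genes, all annotated) and tests were chosen with earlier results of these data known.

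Same-numbered 0h and 4h libraries deviated together from their group means (r = 0.515, 0.590 and 0.724 over 32675 regions, against -0.03 to -0.49 for other pairs), so the number pairs the libraries and was used as a block in an alternative. Counts, SE and p-values not said to be with the block come from the fit without it, which ignores this pairing. Named are genes of the lists that pass a test by gene or that have a gained or lost region, 15 genes fixed by name, the 10 gained and 10 lost regions with the highest percentiles, the 5 lowest p in each direction and the genes with most gained or lost regions. Of these the text describes the ones with the clearest values, and list genes with rising or falling regions, Nfatc2, Cdh6, Foxq1, Egfr, Trim71, Gm3495 and Ugt2b35 were named after their values were seen. The effects of other peak thresholds, merging, measures, scalings, promoter widths and left-out libraries are given at the end. A few results that the rule for naming calls for are not reported here.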

Additional observations from a re-analysis of the deposited data

How the results depend on the processing

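With peaks of -log10 q of at least 10, 648 regions were gained and 209 lost, and with regions merged within 1000 bp 752 and 226. With no peak of the other group within 1000 bp, 194 were lost. By percentile, 1799 regions were higher and 314 lower at an adjusted p under 0.1, 566 and 23 by -log10 p, 163 and 10 when a peak in 1 library sufficed, and 2454 and 664 with the replicate block. By fold enrichment 580 were higher, and ranked among shared regions only 304 were lower. For shared regions, log2 fold enrichment gave 11 and 5 and the replicate block 3974 and 3484. For promoters, fold enrichment gave 0 and 0 (123 and 137 at an unadjusted p under 0.05 in limma), the replicate block 0 and 0 (218 and 448), 2500 bp on either side 9 and 2, and any overlapping peak 6 and 4, or 5 and 4 with the block. For nearest genes the block gave 718 and 400, and list genes past the threshold numbered 5, by fold enrichment 1, with distal regions only 9 and with the block 24. AP-1 letters were in 64.8% of rising regions at 500 bp, against 6.58% at 100 bp. Sharing between libraries kept its direction with -log10 q of at least 10 (1.28 points, exact permutation p = 0.6).

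With 1 library left out, gained regions numbered 1324 to 2526, lost 450 to 1218, higher 0 to 722, lower 0 to 189, shared regions with more fragments 487 to 1217 and with fewer 44 to 430, promoters 0 to 0 in either direction, nearest genes 3 to 94 higher and 0 to 6 lower, and list genes 0 to 3. Of the 57 named shared regions 32 kept the call in each such fit and 25 lost it in at least 1, all 57 kept it with the replicate block and 55 with quantile normalization. Second and later regions of a gene were not refitted. The fits by percentile, promoter and gene still asked for a peak in at least 3 libraries. Regions and promoters called only in the 3 libraries of a group thus left these fits when 1 of them was dropped.

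On log2 fold enrichment the sign of the estimate turned for the regions near Ermp1 (0.0114), Jak2 (-0.16), Sox4 (-0.32), Klf6 (-0.0428), Snai1 (-0.21), Tgfbr1 (-0.16), Acvr1 (-0.0200), Smad7 (-0.0125), Ski (-0.64) and Itga1 (0.0636), whose background moved with the pileup. These estimates were not past the threshold (limma adjusted p between 0.172 and 0.999). By percentile points, nearest gene Tgfbr1 turned to -4.75 and Thoc6 to 1.58 by fold enrichment, Ccdc114 to 2.78 with distal regions only, and with 1 library left out Thoc6 ranged from -42.6 to 1.78 and Ccdc114 from -36.1 to 6.17, both positive without a 0h library. In those fits regions called only in the 3 0h libraries no longer met the filter and left the averages, so the set of regions differed. With wider promoters or any overlapping peak, with or without the block, Inadl turned to -1.30, Atf7ip to -0.57 (-0.575) and Thoc6 to 1.74, and with wider promoters Ccdc114 to 3.55. None of the turned values passed the threshold, and the causes of the other turns were not tested. Changes under about 0.56 on the log2 scale did not pass the threshold at any shared region.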

Other observations

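Some genes outside the lists held several regions that changed. Nfatc2, a calcium-regulated transcription factor, had 9 rising regions among its 13 shared ones, more than any other gene. Cdh6, a cadherin, had 7 of 24, and Foxq1, a forkhead factor, 6 of 14. Egfr, the receptor of epidermal growth factor, had 4 of 14. In the other direction, 4 of the 4 shared regions of Trim71, an RNA-binding ubiquitin ligase, fell, as did 4 of 13 of the predicted gene Gm3495 and 4 of 5 of Ugt2b35, a glucuronosyltransferase. Over all shared regions 3.44% rose and 0.692% fell, and these genes were picked for their high counts. The counts come from the same fit as the rising and falling regions and were not tested further.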
